A study of Mus musculus with 11 samples.

Results

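Short-term haematopoietic stem cells (ST-HSC) sorted from leukaemic bone marrow were compared between mice given cytarabine, doxorubicin and quizartinib and mice given vehicle, where all hosts carried a Cxcl12 deletion. Every library labelled CXCL12 KO (Cre-positive) was taken: 3 treated libraries, numbered 257, 263 and 276, and 2 vehicle libraries, numbered 249 and 275, which together are 5 of the study's 11 libraries. The remaining 6 libraries, 3 treated and 3 vehicle, came from CXCL12 WT (Cre-negative) hosts and served only to estimate spread and to show where the treatment difference departs between niches. All 11 hosts were of the C57BL/6j background and had received Flt3-ITD, TET2 KO acute myeloid leukaemia marrow before treatment, and the Cxcl12 deletion belonged to the host. The labels do not say whether the sorted cells were of donor origin. Messenger RNA levels were measured by sequencing of amplified complementary DNA. The promoter that drives Cre, the doses, the timing of treatment and the ages of the mice are not given in the sources used here. The labels do not say whether each library came from a separate animal, and a p-value here reflects library spread alone, which may be technical.

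The niche cells of the marrow secrete CXCL12, a chemokine that holds stem and progenitor cells in place through the receptor CXCR4. FLT3-ITD is an internal tandem duplication that keeps the FLT3 kinase active and drives STAT5 and ERK signalling, and TET2 is a DNA demethylase whose loss expands the stem cell pool. Cytarabine is a nucleoside analogue that stalls DNA synthesis after phosphorylation by deoxycytidine kinase, doxorubicin poisons topoisomerase II, and quizartinib inhibits the FLT3 kinase.

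Libraries were not alike in quality, and single libraries stood apart in different measures. Gene counts summed to 19618650 and 22171569 in vehicle libraries 249 and 275 and to 25486078, 25567369 and 26389471 in treated libraries 257, 263 and 276, so depth and treatment cannot be told apart. Treated library 257 had 30.4% of its reads outside genes against 5.98% to 18.8% in the other 4. Its level correlations with the other 4 libraries were 0.885 to 0.914 (Spearman's correlation across genes), against 0.935 to 0.949 among those 4, and its levels were relatively lower in longer genes (a correlation of -0.21 with gene length against 0.22 to 0.34). Treated library 276 stood out by globin, 10.5% of its gene counts against 0.0326% to 3.97%. Vehicle library 275 alone held platelet and stromal transcripts at high levels. On the first principal component, an axis with 38.7% of the variance among the 5 libraries, 257 lay at 142 and treated library 263 at 14.7. Treated library 276, at -49.5, lay there beside vehicle libraries 249 and 275, at -49.8 and -57.8. Vehicle library 249 stood apart on the second principal component, with 25.5% of the variance, at 116 against -54.1 to 4.79. Leaving 257 aside, the vehicle pair correlated at 0.939, the treated pair at 0.949 and pairs across the groups at 0.935 to 0.947. The correlations thus did not separate treated from vehicle libraries. With 2 vehicle libraries, a single one of them can set the direction of a group difference, and most list medians below are followed by their value without a named library or, in brackets, by their range over the 5 fits that leave out 1 KO library each. The part of depth, of reads outside genes and of other cell types in these results was not tested beyond those values.

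Levels of 12 progenitor markers (Kit, Ly6a, Cd34, Cd48, Cd27, Flt3, Meis1, Hlf, Mecom, Gata2, Erg and Myb) were looked up, and all 12 had counts in all 5 libraries. At this depth the presence of counts is easily met, so it does not check the label ST-HSC. Levels are given as CPM, each gene's count per 1000000 counts of the library's scaled size. Kit, the stem cell factor receptor, was at 159 and 167 CPM in the vehicle libraries and 20.5, 243 and 210.1 CPM in the treated libraries, so library 257 lay far below the rest. Cd34 was at 439 and 198 CPM in the vehicle libraries and 231, 497 and 260.4 CPM in the treated libraries, with the groups overlapping. Transcripts of the granulocyte path were abundant beside these markers in every library, with myeloperoxidase (Mpo) between 2258 and 13719 CPM. Which cells held them was not tested, and in bulk samples fewer cells of a type and less RNA per cell cannot be told apart. Cxcl12 itself was at 0 and 5.36 CPM in the vehicle libraries and 2.90, 1.20 and 4.63 CPM in the treated libraries; the deletion was made in the host's niche, so these values check nothing about it. Tet2 was at 25.3 and 18.99 CPM in the vehicle libraries and 2.99, 25.1 and 28.7 CPM in the treated libraries, lowest in 257, and a total over the gene does not show which part of it was deleted.

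No gene passed the test of treated against vehicle. Among 16639 genes tested with edgeR's quasi-likelihood test and Benjamini-Hochberg adjustment, 0 had an adjusted p under 0.05 (0%), and the smallest adjusted p was 1, so the adjusted p of every gene named below is 1. Without adjustment, 612 genes (3.68%) had a p under 0.05, of which 450 were higher with treatment (2.7%) and 162 lower (0.974%). DESeq2 called 23 genes, 20 higher and 3 lower, and limma voom with quality weights called 0. Of the 23 genes, 13 had no count in either vehicle library and 13 were under 0.05 before adjustment in edgeR. The biological coefficient of variation, a measure of replicate spread, was 0.783. The rest of the account therefore describes levels in each library, names the values that lie outside the other group's range, and makes no call. As a background for such counts, all 3 treated libraries lay above both vehicle libraries for 2040 genes (12.3%) and below both for 1679 genes (10.1%), and 9338 genes (56.1%) had a log2 fold change above 0, with a median of 0.12.

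Leading genes on the higher side ranged from lipid metabolism to DNA synthesis. They were taken as the 12 of smallest p with groups that did not overlap, so their separation is a result of the choice. Genes with a mean log2 CPM under 3 and predicted models were left out of that choice. Pla2g16, a phospholipase, was at 20.6 and 28.9 CPM in the vehicle libraries and 143, 63.99 and 96.1 CPM in the treated libraries. Its log2 fold change, treated minus vehicle as everywhere here, was 2.03 ± 0.46 (SE), and each treated library held over 2 times the level of either vehicle library. Pola1, the catalytic subunit of DNA polymerase alpha, which starts new DNA strands, was at 47.03 and 45.1 CPM in the vehicle libraries and 94.05, 92.1 and 146 CPM in the treated libraries. The vehicle libraries nearly coincided, and the fold change was 1.26 ± 0.34 (SE). Mllt3, a chromatin reader of the super elongation complex known for its role in stem cell maintenance, was at 3.22 and 5.48 CPM in the vehicle libraries and 18.1, 25.7 and 41.6 CPM in the treated libraries, which gave 2.71 ± 0.76 (SE). Glul, glutamine synthetase, was at 12.5 and 23.7 CPM in the vehicle libraries and 58.1, 41.1 and 66.2 CPM in the treated libraries, with 1.61 ± 0.48 (SE). Rtn4, a reticulon that shapes the endoplasmic reticulum, was at 16.9 and 29.1 CPM in the vehicle libraries and 63.7, 81.9 and 55.9 CPM in the treated libraries, with 1.55 ± 0.42 (SE). Glrx5, a mitochondrial glutaredoxin needed for iron-sulphur clusters, was at 93.8 and 170.4 CPM in the vehicle libraries and 502, 173 and 514 CPM in the treated libraries. Here the lowest treated library, 263, exceeded the highest vehicle library, 275, by a small margin. The other leading genes were Igkc, Isg15, Pura, Ddx17, Cep290 and Tut4, with log2 fold changes of 4.51, 3.63, 1.89, 1.39, 1.97 and 1.30.

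The 12 leading genes on the lower side included genes of neutrophils and macrophages. Serpine2, a secreted inhibitor of serine proteases, had the smallest p of the 24 leading genes, at 79.8 and 140.2 CPM in the vehicle libraries and 18.8, 10.2 and 27.04 CPM in the treated libraries. Its log2 fold change was -2.56 ± 0.56 (SE), and it was also among the 3 genes that DESeq2 called lower. Ncf1, a subunit of the phagocyte NADPH oxidase, was at 316 and 369 CPM in the vehicle libraries and 107, 109 and 184 CPM in the treated libraries, with -1.36 ± 0.42 (SE). Ltf, lactoferrin of the secondary granule, was at 1297 and 3339 CPM in the vehicle libraries and 333, 509.7 and 563 CPM in the treated libraries, which gave -2.31 ± 0.79 (SE). Cd177, a neutrophil surface glycoprotein, was at 315 and 756 CPM in the vehicle libraries and 29.6, 117 and 119 CPM in the treated libraries, with -2.60 ± 0.89 (SE). Chit1, a macrophage chitinase, was at 42.2 and 24.1 CPM in the vehicle libraries and 6.99, 3.90 and 2.63 CPM in the treated libraries, with -2.88 ± 0.90 (SE). Kdelr2, which returns escaped proteins to the endoplasmic reticulum, was at 148 and 147 CPM in the vehicle libraries and 90.7, 49.5 and 84.2 CPM in the treated libraries, and its fold change was -0.98 ± 0.34 (SE). Arl11, Galns, Mfsd10, Clec4b2 and Adpgk were also in the set, with log2 fold changes of -1.19, -1.55, -0.97, -2.05 and -1.83.

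**Figure D1:**
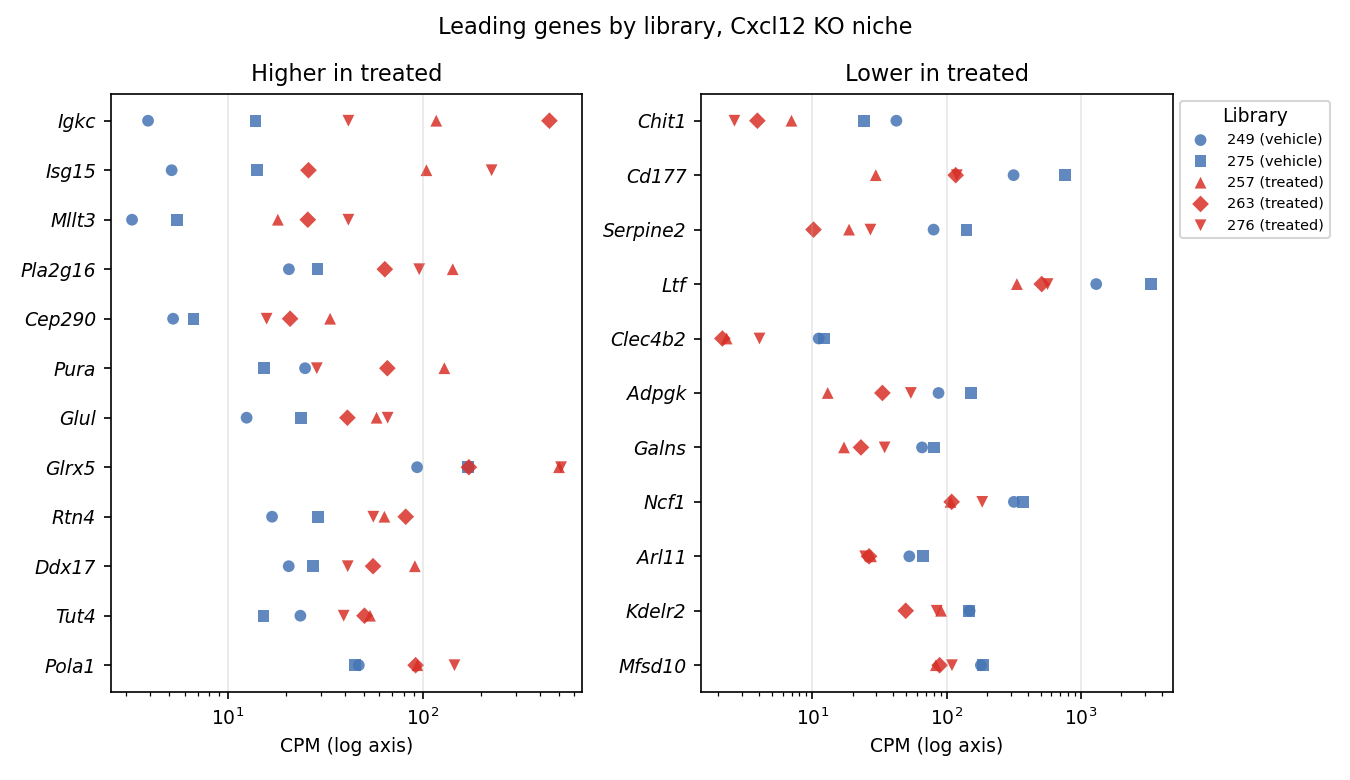
Levels of 23 of the 24 leading genes in each of the 5 libraries, in CPM on a log axis, with the 2 vehicle libraries as blue circles and squares and the 3 treated libraries as red triangles and diamonds. All treated points lie on 1 side of the vehicle points because the genes were chosen that way, and the gap is wide for Serpine2 (79.8 and 140.2 CPM against 10.2 to 27.0 CPM) and nearly closed for Glrx5.

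The list of primary granule genes, which promyelocytes express, also holds transcription factors and other genes of the granulocyte path. It was lower with treatment as a group in these libraries. Of 13 tested, 0 had a log2 fold change above 0 (56.1% of all genes did), 9 lay below both vehicle libraries in all 3 treated libraries (10.1% of all genes), and 0 lay above. The median log2 fold change was -0.92 against 0.12 for all genes, and 0 of the 13 passed the test. Mpo, the enzyme that makes hypochlorous acid in neutrophils, was at 11943 and 13719 CPM in the vehicle libraries and 2467, 2258 and 10093 CPM in the treated libraries. Libraries 257 and 263 were at a fraction of the vehicle level and 276 was close to it, and the fold change was -1.38 ± 0.65 (SE). Serpinb1a, an inhibitor of neutrophil elastase, was at 907 and 756 CPM in the vehicle libraries and 421, 309 and 449 CPM in the treated libraries, with -1.08 ± 0.46 (SE). Hp, haptoglobin, which binds free haemoglobin and is stored in neutrophil granules, was at 717 and 963 CPM in the vehicle libraries and 360.1, 181 and 407 CPM in the treated libraries, with -1.41 ± 0.61 (SE). Cebpe, the transcription factor of late granulocyte differentiation, was at 27.4 and 36.8 CPM in the vehicle libraries and 11.6, 5.71 and 10.7 CPM in the treated libraries, a change of -1.78 ± 0.83 (SE). Gfi1, the repressor that directs progenitors to granulocytes, was at 92.5 and 79.3 CPM in the vehicle libraries and 17.3, 36.5 and 61.6 CPM in the treated libraries, with -1.16 ± 0.54 (SE). Ms4a3 and Prss57, markers of the granulocyte-monocyte path, were below both vehicle libraries as well, with log2 fold changes of -1.01 and -0.81. The serine protease genes did not all separate. Elane, neutrophil elastase, was at 5364 and 5329 CPM in the vehicle libraries and 6171, 684 and 3199 CPM in the treated libraries, and Ctsg, cathepsin G, was at 2427 and 2636 CPM in the vehicle libraries and 2537, 396 and 1606 CPM in the treated libraries. In both, 257 lay within or above the vehicle range and 263 was lowest. Leaving out 1 library moved the median of the 13 between -1.20 and -0.51 and never to a positive value.

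Secondary granule genes, which appear later in granulocyte maturation, had a median of -0.97 over 20 genes tested, 16 of them negative. All treated libraries lay below both vehicle libraries for 7 (10.1% of all genes) and above for 2 (12.3%). Chil3, a chitinase-like protein of neutrophils and macrophages, was at 1281 and 2195 CPM in the vehicle libraries and 473, 345 and 395 CPM in the treated libraries, with -2.10 ± 0.92 (SE). Itgb2l, an integrin chain of neutrophils, was at 68.9 and 117 CPM in the vehicle libraries and 9.10, 37.1 and 20.5 CPM in the treated libraries, with -2.06 ± 0.77 (SE). The calprotectin subunit S100a8 was at 5228 and 11068 CPM in the vehicle libraries and 7841, 2577 and 3327 CPM in the treated libraries, and the groups overlapped. Camp, the cathelicidin precursor, was at 732 and 1997 CPM in the vehicle libraries and 1934, 262 and 278 CPM in the treated libraries, so 257 was level with 275 while 263 and 276 were lower. Much of the list's difference lay in vehicle library 275, and without it the median was -0.28. Monocyte and macrophage genes had a median of 0.03 over 23 genes, 12 positive and 11 negative, with 2 above and 0 below. That median ran from -0.60 to 0.84 when any 1 library was left out, lowest without 249 and highest without 275.

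Genes of glycolysis and of the response to low oxygen leaned lower. Of 34 tested, 25 were negative, all treated libraries lay below both vehicle libraries for 16 (10.1% of all genes) and above for 0, the median was -0.44, and 0 passed the test. Gpi1, glucose-6-phosphate isomerase, was at 1357 and 1457 CPM in the vehicle libraries and 481, 561 and 807 CPM in the treated libraries, with a log2 fold change of -1.19 ± 0.45 (SE). Pgam1, phosphoglycerate mutase, was at 239 and 237 CPM in the vehicle libraries and 115, 89.8 and 161 CPM in the treated libraries, with -0.97 ± 0.35 (SE). Pgk1, phosphoglycerate kinase, was at 212 and 179 CPM in the vehicle libraries and 125, 129 and 136 CPM in the treated libraries, with -0.59 ± 0.27 (SE). In each of these 3 the vehicle libraries lay close together. Eno1, enolase, had -0.78 ± 0.40 (SE), Pkm, pyruvate kinase, had -0.81 ± 0.38 (SE), and Ldha, lactate dehydrogenase, had -0.62 ± 0.36 (SE). The lactate exporter Slc16a3 was at 21.6 and 36.7 CPM in the vehicle libraries and 2.76, 15.9 and 17.04 CPM in the treated libraries. Hexokinase 2 (Hk2), at 35.4 and 28.9 CPM in the vehicle libraries and 67.1, 30.3 and 40.3 CPM in the treated libraries, and the mitophagy receptor Bnip3l, at 85.8 and 181 CPM in the vehicle libraries and 154, 194 and 409 CPM in the treated libraries, overlapped between groups and had the opposite sign. Without any 1 library the median lay between -0.63 and -0.21. The list's mean log2 CPM was 6.08 and 5.88 in the vehicle libraries and 5.32, 5.79 and 5.84 in the treated libraries. Library 257 was thus lowest, and 263 and 276 lay close below vehicle library 275. The NRF2 antioxidant list, of 22 genes, went both ways, with 10 positive, 12 negative and a median of -0.09 (-0.50 to 0.07). In it 3 lay above (12.3% of all genes) and 5 below (10.1%). It holds 3 enzymes of the pentose phosphate pathway, which supplies NADPH. Pgd was at 305 and 331 CPM in the vehicle libraries and 81.7, 105 and 246 CPM in the treated libraries, with -1.14 ± 0.50 (SE). G6pdx, which feeds glucose 6-phosphate into that pathway, was at 319 and 431 CPM in the vehicle libraries and 62.8, 133 and 255 CPM in the treated libraries, with -1.32 ± 0.59 (SE), and Tkt, transketolase, had -0.72 ± 0.34 (SE). Fth1, the ferritin heavy chain of the same list, lay the other way at 1009 and 1228 CPM in the vehicle libraries and 4455, 1288 and 2082 CPM in the treated libraries, with 1.22 ± 0.51 (SE) and library 257 highest.

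Interferon-stimulated genes leaned higher with treatment. Of 38 tested, 29 were positive, all treated libraries lay above both vehicle libraries for 11 (12.3% of all genes) and below for 1, the median was 0.56, and 0 passed the test. Isg15, a ubiquitin-like modifier, was at 5.15 and 14.1 CPM in the vehicle libraries and 105, 25.9 and 226 CPM in the treated libraries. Library 263 was less than 2 times the higher vehicle library, 257 and 276 were far above it, and the log2 fold change was 3.63 ± 1.15 (SE). Isg20, an exonuclease that degrades viral RNA, was at 19.7 and 88.5 CPM in the vehicle libraries and 239, 121 and 486 CPM in the treated libraries, with 2.38 ± 1.04 (SE). Eif2ak2, the kinase PKR, which stops translation when it binds double-stranded RNA, was at 25.5 and 26.1 CPM in the vehicle libraries and 38.3, 45.1 and 52.7 CPM in the treated libraries, with 0.82 ± 0.48 (SE). Irf7, the transcription factor that amplifies interferon production, was at 4.48 and 28.2 CPM in the vehicle libraries and 30.5, 39.98 and 69.4 CPM in the treated libraries, with 1.51 ± 1.22 (SE). Ifit3 was at 0.895 and 0.0409 CPM in the vehicle libraries and 6.53, 2.72 and 4.82 CPM in the treated libraries and Ifit1 at 2.42 and 1.47 CPM in the vehicle libraries and 3.36, 9.14 and 7.85 CPM in the treated libraries, low levels of a family that binds foreign RNA and whose near-identical copies can share reads. Rsad2, viperin, was at 4.39 and 75.3 CPM in the vehicle libraries and 57.5, 107 and 705 CPM in the treated libraries, where 257 lay between the vehicle libraries. Library 249 was the lowest of the 5 for Isg15, Isg20, Irf7 and Rsad2. Irf9, a part of the transcription factor that switches these genes on, was at 22.5 and 51.9 CPM in the vehicle libraries and 29.2, 44.8 and 59.01 CPM in the treated libraries, and the groups overlapped. The median lay between 0.28 and 0.98 when any 1 library was left out.

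Promoters of the interferon list are shown because these genes are known for a shared regulatory element, and the list was not chosen by sequence. The letters searched were GAAANNGAAA, the core of the interferon-stimulated response element, on both strands, in windows from 250 bases before to 50 bases after the gene's start in RefSeq (build GRCm38.p6; the deposited counts were made on GRCm39). Of the 38 members 29 had a window, and 19 of these held the letters (65.5%), as did 5 of the 8 members with a window whose treated libraries all lay above vehicle (62.5%). Among all tested genes with a window searched the share was 454 of 11078 (4.1%), and over all windows searched it was 1131 of 32851 (3.44%). The windows of a single chromosome were left out of the search, so genes there count as having no window. The 250 bases before the start of 3 members that lay above vehicle in all treated libraries follow, 5′ to 3′ on the gene's strand, with matches in capitals. Isg15 lies on the minus strand at chr4:156200819-156201068, Ifit3 on the plus strand at chr19:34583279-34583528 and Ifit1 on the plus strand at chr19:34640639-34640888.
Isg15: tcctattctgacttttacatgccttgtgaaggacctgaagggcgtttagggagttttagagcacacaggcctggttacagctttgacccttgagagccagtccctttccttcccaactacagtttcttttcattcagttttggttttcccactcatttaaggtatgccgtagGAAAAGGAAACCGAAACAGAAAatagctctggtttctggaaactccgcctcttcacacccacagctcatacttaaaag
Ifit3: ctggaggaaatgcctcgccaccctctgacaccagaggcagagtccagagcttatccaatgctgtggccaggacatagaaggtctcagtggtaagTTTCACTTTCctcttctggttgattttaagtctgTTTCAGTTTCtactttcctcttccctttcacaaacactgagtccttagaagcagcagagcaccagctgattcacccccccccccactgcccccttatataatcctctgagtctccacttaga
Ifit1: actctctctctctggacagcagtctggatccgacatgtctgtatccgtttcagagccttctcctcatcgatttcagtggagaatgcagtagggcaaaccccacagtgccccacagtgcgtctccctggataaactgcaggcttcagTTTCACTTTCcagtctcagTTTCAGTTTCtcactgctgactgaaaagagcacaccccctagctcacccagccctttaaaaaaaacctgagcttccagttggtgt
Isg15 held 3 overlapping matches in a single run that begins 78 bases before the start. Ifit3 held 2 matches on the opposite strand, read as TTTCACTTTC at 156 and TTTCAGTTTC at 122 bases before the start, and Ifit1 held the same 2 words at 104 and 85 bases before it. Isg20 and Irf7, which also lay above vehicle, had windows with no match. A match is a description of these letters only, not a bound site or a cause.

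**Figure D2:**
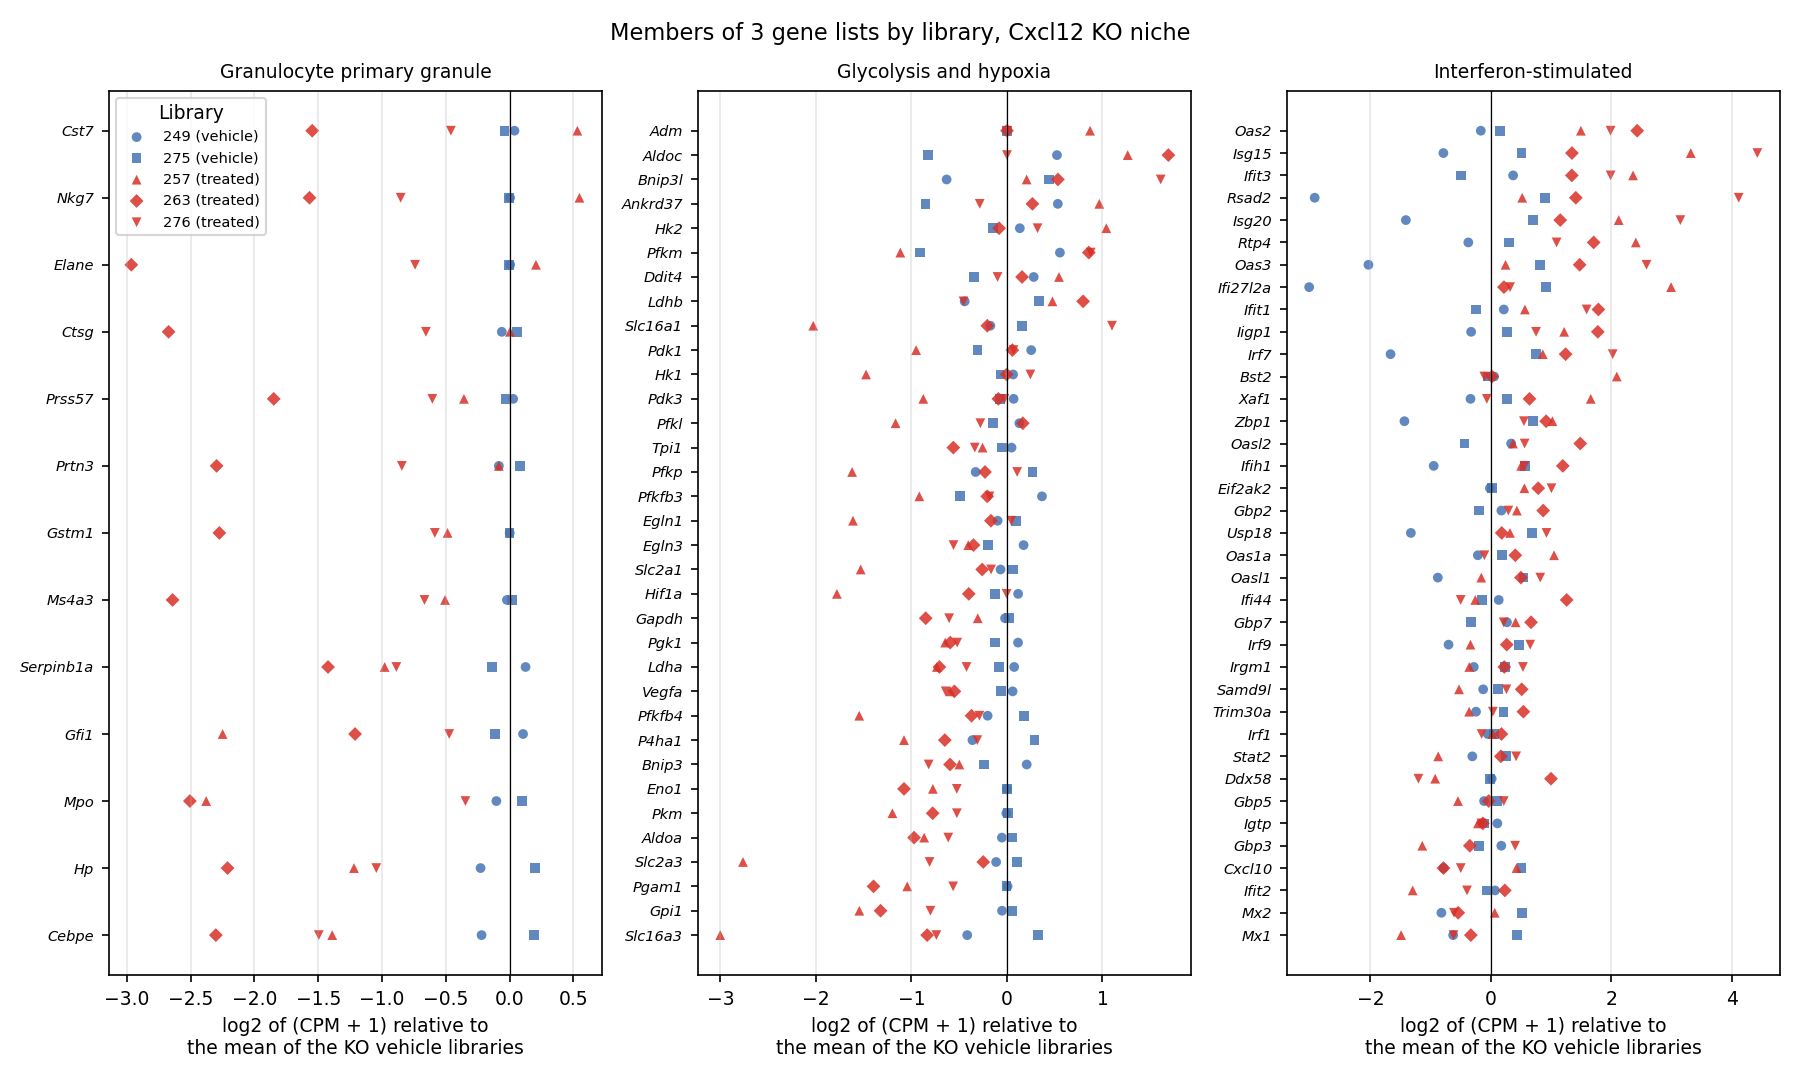
Tested members of 3 gene lists (primary granule, glycolysis and hypoxia, interferon-stimulated) in each library, as log2 of (CPM + 1) relative to the mean of the 2 vehicle libraries, ordered by fold change, with vehicle in blue and treated in red. Red points lie left of 0 for most granule and glycolysis genes and right of 0 for the upper part of the interferon list, and library 257 (upward triangles) returns to the vehicle level for Elane, Ctsg, Nkg7 and Cst7.

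Most lymphoid genes had a positive log2 fold change with treatment. Of 19 B lymphoid genes tested, 18 were positive, and 4 had a group with no count. All treated libraries lay above both vehicle libraries for 6 (12.3% of all genes) and below for 0 (10.1%). The median was 2.25, or 1.61 when genes with no count in a group are set at the bound that 3 counts over the group allow. Igkc, the constant region of the immunoglobulin kappa chain, was at 3.89 and 13.9 CPM in the vehicle libraries and 118, 448 and 41.6 CPM in the treated libraries, with 4.51 ± 1.12 (SE). Jchain, which joins immunoglobulin polymers in plasma cells, was at 1.66 and 2.29 CPM in the vehicle libraries and 5.70, 188 and 14.2 CPM in the treated libraries, with 5.13 ± 1.66 (SE) and most of its counts in 263. Rag2, the recombinase of antigen receptor genes, had no count in either vehicle library and was at 2.99, 1.05 and 3.11 CPM in the treated libraries, at least 34.8-fold higher. The B cell receptor-like gene Fcrla, singled out after its values were seen, also had no count in the vehicle libraries and was at 5.75, 2.20 and 3.52 CPM with treatment, at least 55.5-fold higher. Neither Rag2 nor Fcrla had a count in the WT vehicle libraries. Both therefore passed the filter on low counts through treated libraries alone and could only come out higher. Of 24 T and NK genes, 19 were positive, 5 lay above (12.3% of all genes) and 0 below (10.1%), with a median of 1.32. In this list 3 genes had a group with no count. Trbc1, a T cell receptor constant region, was at 0.0448 and 0.491 CPM in the vehicle libraries and 1.38, 3.63 and 16.97 CPM in the treated libraries, with 4.73 ± 1.53 (SE), and 276 held most of it. The mean log2 CPM of the B lymphoid list was -0.68 and 0.08 in the vehicle libraries and 0.65, 1.68 and 1.82 in the treated libraries. That of the T and NK list was -0.95 and 0.65 against 0.53, 1.56 and 1.94, so library 257 lay below vehicle library 275. Without vehicle library 275 the medians of the B lymphoid and the T and NK list were 4.50 and 7.18, where many genes had no count in the lone vehicle library and these fitted values are no bound. Each list held further members with no count in any vehicle library of either niche, and these too could only come out higher. For that reason a sign shared between the niches is not support for a shared change. In the WT niche, where the same filter applied, both lists had the same sign, with medians of 3.69 and 1.93. Trbc1 did not share it: it was at 10.5 to 23.03 CPM in the WT vehicle libraries and 2.51 to 18.5 CPM in the WT treated libraries, which overlap, with a WT log2 fold change of -1.14 and an interaction of 5.87 ± 1.84 (SE; adjusted p = 0.767).

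Erythroid genes were higher with treatment by every fitted value, with a size that depended on libraries 276 and 275. All 28 tested were positive, 8 lay above both vehicle libraries in all treated libraries (12.3% of all genes) and 0 below (10.1%), and the median was 1.95. Hbb-bs, an adult beta-globin gene whose reads can be shared with its near-identical copy, was at 124 and 8160.2 CPM in the vehicle libraries and 19319.5, 10204 and 49424 CPM in the treated libraries. Vehicle library 249 was nearly free of it while 275 lay close to 263, and the log2 fold change was 2.67 ± 1.59 (SE). Alas2, the first enzyme of haem synthesis in red cells, was at 6.22 and 407 CPM in the vehicle libraries and 152, 633 and 2955 CPM in the treated libraries, and the groups overlapped. Blvrb, biliverdin reductase B, was at 23.9 and 170.1 CPM in the vehicle libraries and 450.2, 109 and 564 CPM in the treated libraries, with 1.95 ± 0.84 (SE) and overlapping groups. Tal1, a transcription factor of stem cells and erythroid cells, did separate, at 8.82 and 14.1 CPM in the vehicle libraries and 33.4, 32.2 and 61.5 CPM in the treated libraries, with 1.89 ± 0.92 (SE). The mean log2 CPM of the list was 3.67 and 6.66 with vehicle and 6.61, 6.61 and 8.99 with treatment. Without 276 the median was 0.62, and without 275 it was 3.89. Haem biosynthesis genes had a median of 0.87 over 17 tested, 14 positive, with 2 above and 1 below, and of -0.08 without 276. Alad and Urod, enzymes of the middle of the pathway, had 1.29 ± 0.53 (SE) and 1.19 ± 0.48 (SE), with groups that overlapped. Alas1, the first haem enzyme outside red cells, was the 1 member below vehicle, at 580.5 and 690.5 CPM in the vehicle libraries and 129, 135 and 452 CPM in the treated libraries, with -1.41 ± 0.63 (SE).

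The median of the 19 megakaryocyte and platelet genes tested was -1.11, with 0 above vehicle (12.3% of all genes) and 2 below (10.1%), and it depended on vehicle library 275. Pf4, platelet factor 4, was at 2.15 and 253 CPM in the vehicle libraries and 15.7, 2.37 and 2.93 CPM in the treated libraries, and Ppbp, the platelet basic protein, was at 0.582 and 251 CPM in the vehicle libraries and 0.506, 0.966 and 0.704 CPM in the treated libraries. For both genes 275 was the only library with a high level. Without it the list median was 0.52, and the log2 fold changes of Pf4 and Ppbp turned from -4.19 and -7.42 to 1.72 and 0.27. Stromal and endothelial genes behaved alike, with a mean log2 CPM of 2.69 in 275 against -0.69 in 249 and 0.22 to 1.43 in the treated libraries. Their median was -0.32 with all libraries and 4.17 without 275. Without 275 the vehicle group is library 249 alone, where many of these genes had no count, so the second value is fitted over zero counts and is no bound.

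Of 78 cytosolic ribosomal protein genes tested, 8 lay above vehicle in all treated libraries (12.3% of all genes) and 0 below (10.1%). All 78 were positive, with a median of 1.02. This lay in library 257: the mean log2 CPM of the list was 7.91 and 7.81 with vehicle and 9.86, 8.10 and 7.70 with treatment, and the median without 257 was 0.02. Rps12, a small subunit protein, was at 197 and 224 CPM in the vehicle libraries and 1639, 398 and 259 CPM in the treated libraries, with 1.86 ± 0.73 (SE) and 257 far from the other 4. Nuclear genes of oxidative phosphorylation had a median of 0.61 over 74 tested, 65 positive, yet 0 lay above and 5 below, and the median was -0.19 without 257. With a trend on gene length removed from each library, the medians of these 2 lists were 0.61 and 0.20. The 13 mitochondrially encoded genes had a median of 0.01 (-0.49 to 0.48), 0 above and 0 below.

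**Figure D3:**
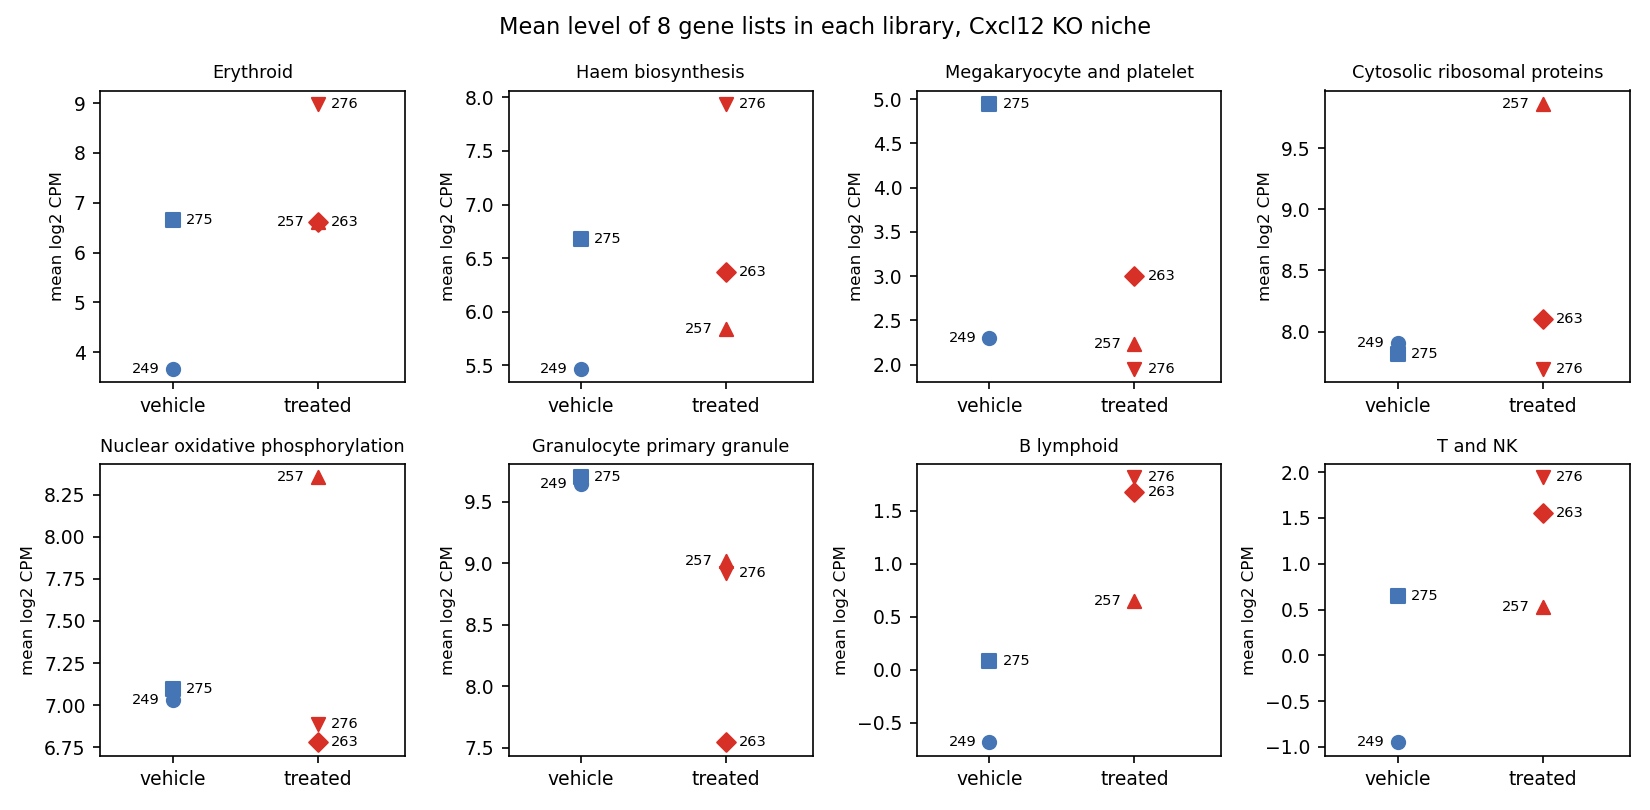
Mean log2 CPM of 8 gene lists in each of the 5 libraries, vehicle in blue at the left and treated in red at the right of each panel, with the library number beside each point; the vertical scales differ between panels. Single libraries stand apart in several lists. In the erythroid list these are 276 (8.99) and, at the low end, 249 (3.67). Elsewhere they are 275 for the platelet list (4.95) and 257 for the ribosomal (9.86) and oxidative phosphorylation (8.35) lists.

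The target and handling genes of the 2 chemotherapy drugs had medians near that of all genes. The cytarabine list (17 genes tested) had a median of 0.14 (-0.06 to 0.26), with 0 above and 0 below. Dck, the activating kinase, was at 90.8 and 109 CPM in the vehicle libraries and 24.7, 80.1 and 125 CPM in the treated libraries, and only 257 was low. Samhd1, which hydrolyses the active triphosphate, was at 31.3 and 104 CPM in the vehicle libraries and 86.3, 99.6 and 89.1 CPM in the treated libraries, with the vehicle libraries far apart. The anthracycline list (17 genes tested) had a median of 0.24 (-0.22 to 0.37), with 3 above (12.3% of all genes) and 2 below (10.1%). Top2a, the topoisomerase II of dividing cells, was at 238 and 274 CPM in the vehicle libraries and 410.2, 386 and 485 CPM in the treated libraries, above vehicle in all 3, with 0.74 ± 0.32 (SE). Top2b, the isoform of resting cells, was at 141 and 119 CPM in the vehicle libraries and 86.8, 207 and 269 CPM in the treated libraries and overlapped. Top1 was at 100.9 and 106 CPM in the vehicle libraries and 291, 139 and 134 CPM in the treated libraries, with 0.86 ± 0.40 (SE). Abcb4, a phospholipid transporter of the multidrug resistance family, was at 7.16 and 13.4 CPM in the vehicle libraries and 23.4, 15.8 and 52.3 CPM in the treated libraries, with 1.57 ± 0.73 (SE). Its treatment difference in the WT niche was -2.48, and the interaction was 4.05 ± 0.997 (SE; adjusted p = 0.767). Aldh3b1, an aldehyde dehydrogenase, lay the other way at 39.7 and 93.4 CPM in the vehicle libraries and 17.97, 25.5 and 30.7 CPM in the treated libraries, with -1.43 ± 0.70 (SE).

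The 17 STAT5 target and FLT3 output genes had a median of 0.04 (-0.44 to 0.18), with 2 above and 1 below, where 12.3% and 10.1% of all genes did so. Pim1, a survival kinase and STAT5 target, was at 29.6 and 29.95 CPM in the vehicle libraries and 173, 81.5 and 48.2 CPM in the treated libraries, with 1.76 ± 0.66 (SE). Its vehicle libraries coincided, and every treated library was higher. Ccnd3, cyclin D3, was at 309.6 and 467 CPM in the vehicle libraries and 120.3, 222 and 288 CPM in the treated libraries, below vehicle in all 3, with -0.88 ± 0.52 (SE). Cish and Socs2, feedback inhibitors of STAT5, were at 23.5 and 14.5 CPM in the vehicle libraries and 15.1, 31.6 and 26.3 CPM in the treated libraries and at 212 and 76.1 CPM in the vehicle libraries and 357, 292 and 92.2 CPM in the treated libraries in that order, overlapping in both cases. Flt3 was at 174 and 72.9 CPM in the vehicle libraries and 102, 222 and 68.5 CPM in the treated libraries, also overlapping, and it varied as much within a group as between them. ERK feedback genes (16 tested) had a median of 0.14 (0.18 to 0.62), with 2 above and 2 below, and Dusp6, the phosphatase induced by ERK, was at 19.1 and 17.9 CPM in the vehicle libraries and 6.99, 25.04 and 17.4 CPM in the treated libraries. For the 22 immediate early genes tested, AP-1 among them, the median was 0.29 (0.04 to 0.57), with 2 above and 1 below.

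p53 target genes showed no common shift, with a median of -0.05 over 34 tested, 16 positive, 2 above (12.3% of all genes) and 3 below (10.1%). Cdkn1a, the p21 inhibitor of cyclin-dependent kinases, was at 27.4 and 19.2 CPM in the vehicle libraries and 78.9, 26.1 and 15.9 CPM in the treated libraries, and only 257 exceeded the vehicle libraries. Mdm2, the ligase that degrades p53, was at 36.8 and 36.01 CPM in the vehicle libraries and 17.1, 42.03 and 44.2 CPM in the treated libraries. Bax, a pore-forming effector of apoptosis, was at 32.04 and 30.6 CPM in the vehicle libraries and 94.05, 25.3 and 21.3 CPM in the treated libraries, again with 257 alone high. Genes of the BCL2 family had a median of 0.58 over 17 tested, 11 positive, with 3 above (12.3% of all genes) and 0 below (10.1%). The median ranged from 0.25 to 0.91 when any 1 library was left out. Mean log2 CPM of the family was 2.94 and 2.93 in the vehicle libraries and 3.84, 3.39 and 2.83 in the treated libraries. Library 257 was thus highest and 276 lay below both vehicle libraries. The anti-apoptotic members Bcl2, at 110.2 and 51.5 CPM in the vehicle libraries and 61.5, 86.4 and 58.2 CPM in the treated libraries, and Mcl1, at 123 and 189 CPM in the vehicle libraries and 101.2, 198 and 173 CPM in the treated libraries, overlapped between groups, as did Bcl2l1, at 29.5 and 50.01 CPM in the vehicle libraries and 30.5, 60.3 and 154 CPM in the treated libraries.

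Cell cycle genes did not shift together, although single members separated. The replication and S phase list had a median of -0.26 (-0.49 to -0.11) over 40 tested, with 28 negative, 1 above (Pola1) and 6 below (10.1% of all genes). Cdc45, a part of the replicative helicase, was at 107 and 101.1 CPM in the vehicle libraries and 43.3, 41.1 and 88.9 CPM in the treated libraries, with -0.85 ± 0.42 (SE). The mitosis list had a median of -0.01 (-0.38 to 0.22) over 36 tested, with 3 above (12.3% of all genes) and 0 below (10.1%). Cenpf, a kinetochore protein, was at 40.5 and 37.2 CPM in the vehicle libraries and 114, 76.5 and 95.5 CPM in the treated libraries, with 1.29 ± 0.46 (SE). Mki67, the Ki-67 proliferation marker, was at 127 and 186 CPM in the vehicle libraries and 255, 175 and 314 CPM in the treated libraries, where 263 lay below vehicle library 275, and its fold change was 0.66 ± 0.35 (SE). DNA repair and checkpoint genes had a median of -0.06 (-0.23 to 0.09) over 48 tested, with 7 above (12.3% of all genes) and 2 below. Atr, the kinase that senses stalled replication forks, was at 5.77 and 13.9 CPM in the vehicle libraries and 20.5, 30.4 and 33.01 CPM in the treated libraries, with 1.51 ± 0.65 (SE). Brca2, which acts in homologous recombination, was at 29.9 and 39.1 CPM in the vehicle libraries and 59.7, 60.5 and 63.3 CPM in the treated libraries, with 0.83 ± 0.35 (SE). Atm, the kinase that senses double-strand breaks, lay above vehicle too, at 16.2 and 15.3 CPM in the vehicle libraries and 32.1, 24.7 and 35.4 CPM in the treated libraries. Quiescence genes had a median of 0.21 (0.01 to 0.28) over 22 tested, with 4 above (12.3% of all genes) and 1 below (10.1%). Cdkn1b, the p27 inhibitor, was at 2.77 and 9.74 CPM in the vehicle libraries and 24.1, 15.02 and 11.97 CPM in the treated libraries, with 1.44 ± 0.72 (SE), and Foxo3, a transcription factor that keeps stem cells at rest, was at 6.35 and 13.6 CPM in the vehicle libraries and 27.5, 27.97 and 21.9 CPM in the treated libraries.

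Stem cell genes were mixed. Of 32 tested, 22 were positive, 3 lay above (12.3% of all genes) and 3 below (10.1%), and the median was 0.36 (0.19 to 0.73). Beside Tal1, the helix-loop-helix partner Lyl1 was at 12.5 and 10.7 CPM in the vehicle libraries and 118, 21.2 and 9.82 CPM in the treated libraries, high in 257 only. Mecom, the EVI1 regulator of stem cell self-renewal, was at 32.6 and 4.38 CPM in the vehicle libraries and 113, 50.2 and 10.9 CPM in the treated libraries, with 275 and 276 lowest. Meis1, a homeobox factor of leukaemia stem cells, was at 52.9 and 27.9 CPM in the vehicle libraries and 30.9, 78.7 and 21.6 CPM in the treated libraries, overlapping. Myb, which progenitors need to expand, was at 229 and 213 CPM in the vehicle libraries and 70.6, 152 and 174 CPM in the treated libraries, below vehicle in all 3.

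Genes downstream of CXCL12 leaned lower with treatment, and the hosts of both groups carried the Cxcl12 deletion. Of 28 tested, 21 were negative, 8 lay below vehicle in all treated libraries (10.1% of all genes) and 1 above. The mean log2 CPM of the list was 6.26 and 6.72 in the vehicle libraries and 5.63, 6.44 and 6.63 in the treated libraries. By that measure only 257 lay below both vehicle libraries, and 263 and 276 lay between them. The median was -0.33, against -0.46 in the WT niche, so the sign was the same in both niches. The receptor Cxcr4 was at 63.1 and 106 CPM in the vehicle libraries and 34.3, 39.9 and 82.3 CPM in the treated libraries, with 276 between the vehicle libraries. Rac2, the blood-restricted GTPase of migration, was at 1033 and 1248 CPM in the vehicle libraries and 749, 557 and 653 CPM in the treated libraries, with -0.80 ± 0.44 (SE), and its relative Rac1 had -0.59 ± 0.35 (SE). The receptor kinase gene Grk6 was at 160.0 and 142 CPM in the vehicle libraries and 37.4, 98.7 and 127 CPM in the treated libraries and the exchange factor Vav1 at 268 and 261 CPM in the vehicle libraries and 79.5, 203 and 206 CPM in the treated libraries, with 257 lowest in both. Leaving out 1 library gave medians of -0.59 to -0.11. The study's title names p38 MAPK signalling in the CXCL12-deleted niche. The 36 p38 genes tested had a median of -0.18, 23 negative, with 2 above (12.3% of all genes) and 6 below (10.1%). Their median was 0.14 without 257, and -0.44 in the WT niche. Mapk14, p38 alpha, was at 232 and 216 CPM in the vehicle libraries and 74.7, 179 and 205 CPM in the treated libraries, with -0.55 ± 0.40 (SE). Libraries 263 and 276 were close to vehicle and 257 was low. In the WT niche the log2 fold change of Mapk14 was -1.33. Its substrates Mapkapk2, at 485 and 454 CPM in the vehicle libraries and 108, 286 and 404 CPM in the treated libraries, and Mapkapk3, at 319 and 342 CPM in the vehicle libraries and 56.7, 132 and 287 CPM in the treated libraries, lay below vehicle in the same order of libraries. Mapk13, p38 delta, was at 26.4 and 42.3 CPM in the vehicle libraries and 16, 11.5 and 9.48 CPM in the treated libraries, with -1.48 ± 0.70 (SE). Zfp36l1, an RNA-decay factor that p38 signalling controls, lay the other way at 3.45 and 2.50 CPM in the vehicle libraries and 22.3, 10.2 and 5.78 CPM in the treated libraries, with 2.10 ± 0.90 (SE). These are transcript levels, and kinase activity was not measured in the files used here. Genes of ATF4 and the unfolded protein response had a median of -0.40 (-0.63 to -0.13) over 28 tested, with 2 above (12.3% of all genes) and 8 below (10.1%). Xbp1, the transcription factor that widens the secretory pathway, was at 333 and 352 CPM in the vehicle libraries and 93.9, 154 and 234 CPM in the treated libraries, with -1.09 ± 0.47 (SE).

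**Figure D4:**
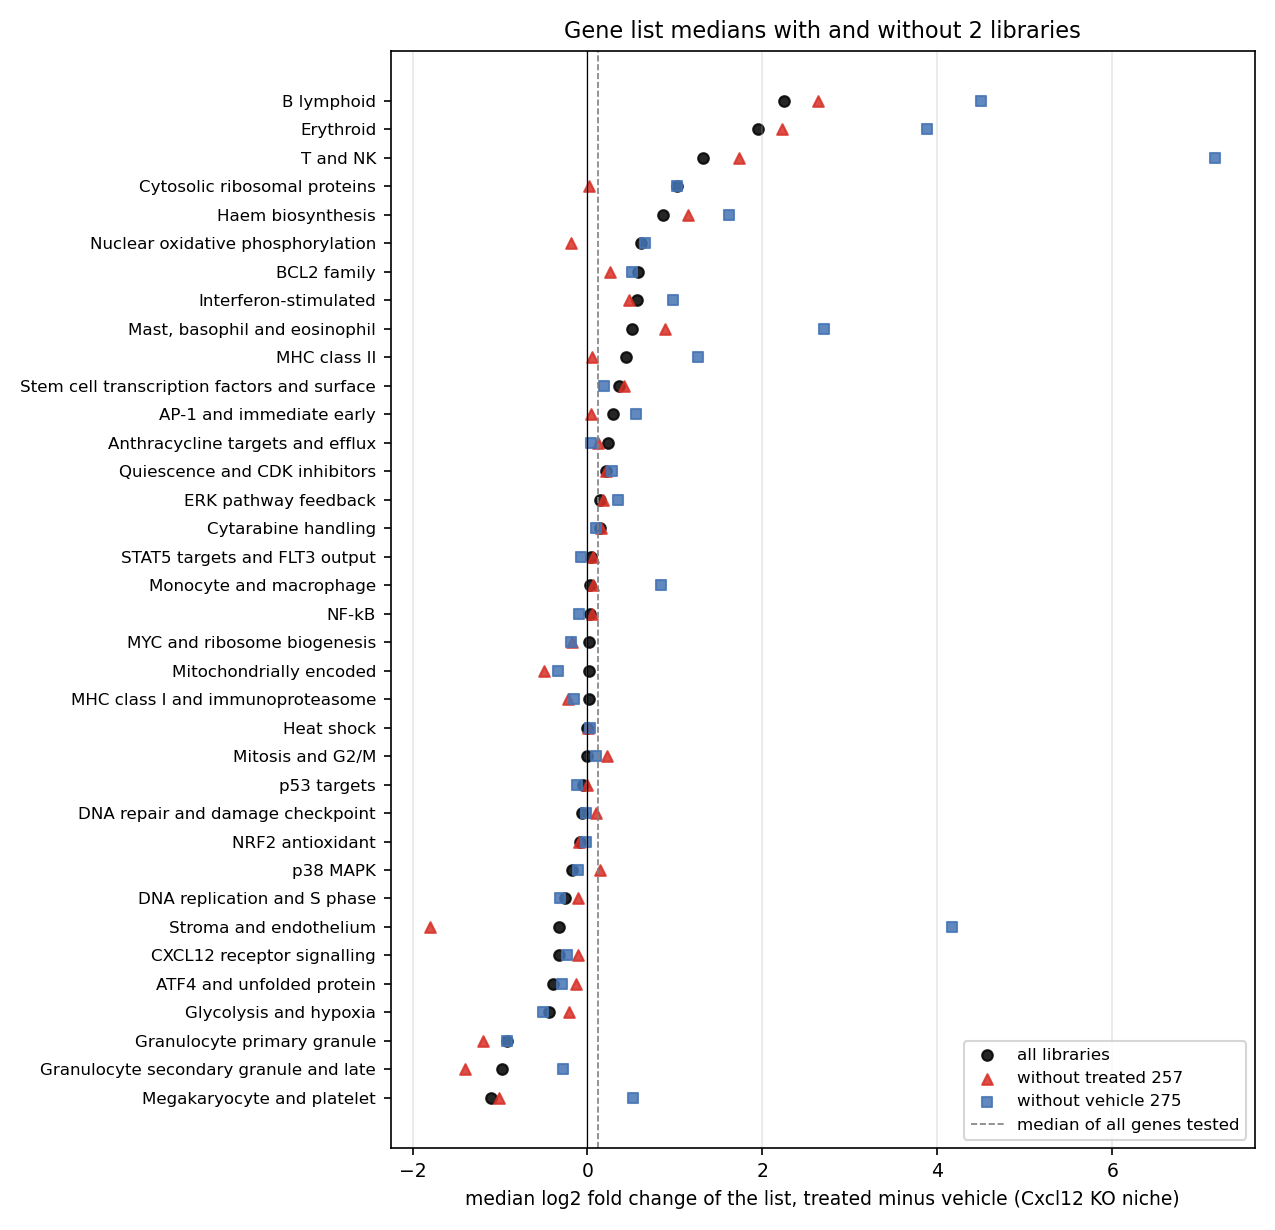
Median log2 fold change (treated minus vehicle) of each of the 36 gene lists with all libraries (black circles), without treated library 257 (red triangles) and without vehicle library 275 (blue squares); the dashed line is the median of all genes tested, 0.12. The ribosomal list goes from 1.02 to 0.02 without 257, the platelet list from -1.11 to 0.52 without 275, and the primary granule list stays below 0 in both cases.

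The treatment difference was then set beside that in the WT niche, where 3 treated and 3 vehicle libraries were compared in the same fit. Correlation of levels with gene length was 0.03 to 0.10 in the WT vehicle libraries and -0.38 to -0.29 in the WT treated libraries. In that order, the mitochondrial share was 17.2% to 27.4% and 2.86% to 14.95%. Gene counts summed to 8129032 to 20377864 and 22427405 to 31061919. These measures and WT treatment cannot be told apart, and their part in the medians and fold changes below was not tested. The interaction, the KO difference minus the WT difference, had 0 genes with an adjusted p under 0.05 (0%; smallest adjusted p 0.628; edgeR quasi-likelihood test), 1050 genes at an unadjusted p under 0.05 (6.31%) and 58 calls with DESeq2, 24 above 0 and 34 below. In the WT niche itself 0 genes were called and 3035 had an unadjusted p under 0.05 (18.2%). Across the 16639 genes the KO and WT differences had a Spearman's correlation of 0.24, given as a description, with no sample shared between them. The primary granule list had medians of opposite sign, -0.92 in the KO niche and 0.52 in the WT niche, where 10 of 13 were positive. Prss57 had the smallest interaction p of that list, -1.55 ± 0.66 (SE; adjusted p = 0.767), while Mpo was lower in both niches, -1.38 and -1.20. Erythroid genes had a WT median of -0.12. Their mean log2 CPM was between 0.36 and 2.66 in the 6 WT libraries and between 3.67 and 8.99 in the 5 KO libraries, so each KO library lay above each WT library whatever the treatment. Pola1 had -0.25 in the WT niche and an interaction of 1.51 ± 0.44 (SE; adjusted p = 0.767). For Mllt3 the WT value was -0.27 and the interaction 2.98 ± 0.95 (SE; adjusted p = 0.767). Atr had -1.28 and 2.79 ± 0.86 (SE; adjusted p = 0.767), and Kdelr2 had 0.50 and -1.47 ± 0.46 (SE; adjusted p = 0.767). Interferon-stimulated genes had nearby medians in both niches, 0.56 and 0.67, and 0 of 38 had an interaction p under 0.05. For the glycolysis list they were -0.44 and -0.36. Mitochondrially encoded genes had medians of 0.01 against -1.44, with 0 of 13 at an interaction p under 0.05.

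**Figure D5:**
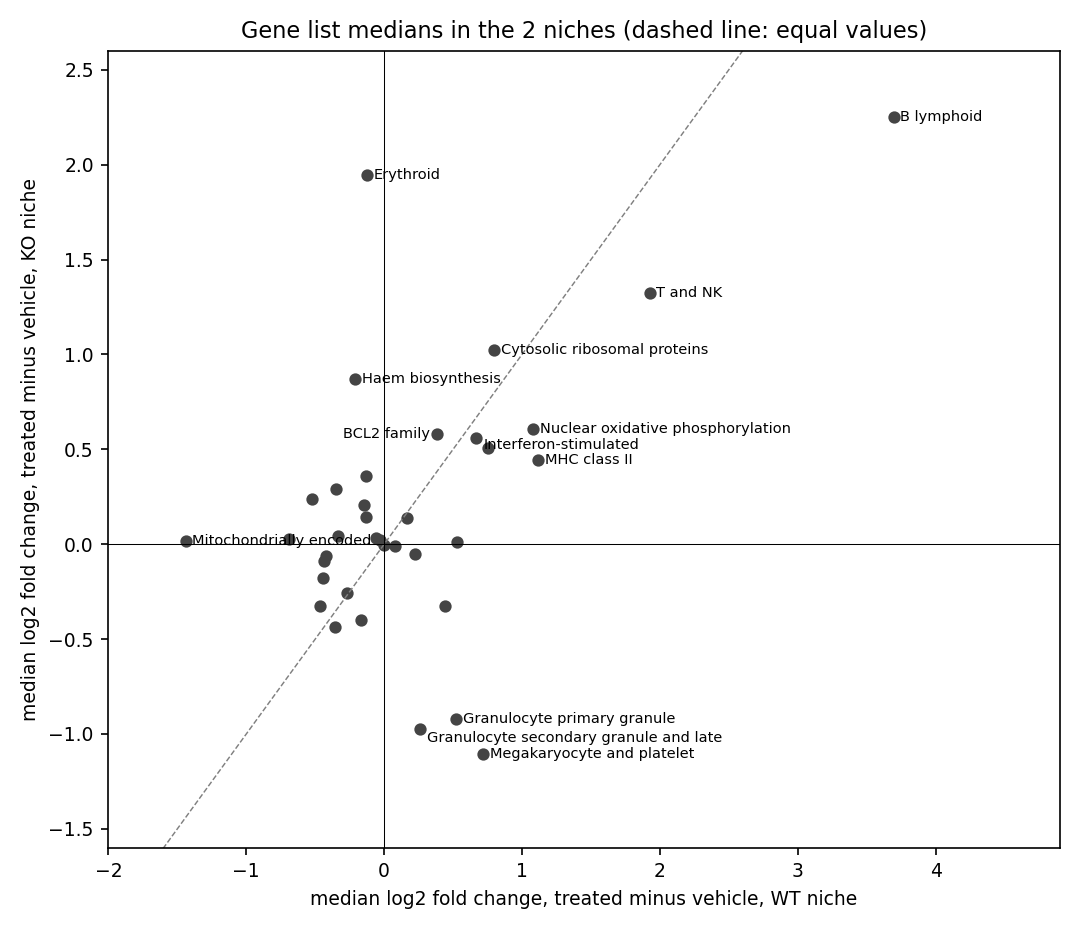
Median log2 fold change (treated minus vehicle) of each gene list in the KO niche (vertical axis) against the WT niche (horizontal axis), 1 point a list, with lists far from 0 named and the dashed line marking equal values. The granule and platelet lists lie below 0 in the KO niche and above 0 in the WT niche, the erythroid list lies at 1.95 against -0.12, and the lymphoid lists are above 0 in both.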

How the data were processed

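The deposited file holds raw read counts per gene for 11 libraries, made by the authors, and it was used as deposited after 5 HTSeq summary lines were dropped. Per the labels' protocols, RNA was amplified with SMARTer v4 and made into Nextera XT libraries, which do not keep the strand, so a gene and an overlapping antisense gene cannot be told apart. The submitters' processing notes list, without roles, STAR 2.7.9a, Trim Galore 0.6.7, HTSeq (version given as 0.6.7), bcl2fastq and DESeq2, with the build GRCm39; the gene annotation, the counting options and the filters are not given in the sources used here.

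Of 53700 gene IDs 52093 had a symbol in the RefSeq or gene name tables given. Genes were kept by edgeR's filterByExpr over the 4 groups, which left 16639, and scaled by TMM. edgeR 4.0.16 (R 4.3.3) fitted 1 mean per group to all 11 libraries with a robust quasi-likelihood fit; the contrast was KO treated minus KO vehicle, and the interaction was that minus the same difference in the WT niche. P-values were adjusted by Benjamini-Hochberg over all genes tested, with a threshold of 0.05. SE is the absolute log2 fold change over the root of its F statistic. CPM are counts over the TMM-scaled library size, times 1000000, and values in a sentence are in the order 249, 275, then 257, 263, 276. A group with no count was set at 3 counts over the group for a lower bound on a fold, which covers counting error only. An exact permutation test of 3 against 2 libraries could not go below p = 0.1.

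The 36 gene lists (1004 names, of which 983 were tested, 16 were below the filter and 5 had no match) and the genes named were chosen with earlier results of these data known. Leading genes were the 12 of smallest p each way whose groups did not overlap, leaving out predicted gene models and genes with a mean log2 CPM under 3, since no gene passed the threshold; from each list the 4 members of smallest p were candidates, besides a fixed set of drug targets and markers. Outside this rule, and chosen after their values were seen, were Elane, Ctsg, Mpo, Ms4a3, Prss57, S100a8, Camp, Slc16a3, Hk2, Bnip3l, Eno1, Ldha, Pkm, Ifit1, Ifit3, Irf7, Rsad2, Irf9, Fcrla, Cish, Socs2, Dusp6, Mecom, Grk6, Mapkapk2, Mapkapk3, Siglech and Ibsp. Lists are described by counts and medians, with no set test. A few single genes are counted in these lists but not reported here. Alternatives were DESeq2 1.42.0 with its size factors or its test, upper-quartile scaling, no filter, a mean CPM of at least 10, limma 3.58.1 voom with quality weights, a fit without the robust option, a fit of the 5 KO libraries alone, a covariate for reads outside genes, a trend on gene length removed (99.7% of genes tested had a length), and each library left out; leaving out 257 and 275 together was chosen after seeing the data. The fits were tested on simulated data.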

Additional observations from a re-analysis of the deposited data

How the results depend on the processing

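No gene was called for treated against vehicle, or for the interaction with the niche, in any edgeR or limma voom setting, with any 1 of the 5 libraries left out (0 to 0 calls), or without 257 and 275 together. DESeq2 called 23 genes (20 higher, 3 lower) for treated against vehicle and 58 for the interaction (24 above 0, 34 below); 13 of the 23 rest on vehicle libraries with no count, and 5 of those 13 also have no count in at least 1 treated library. The number of genes at an unadjusted p under 0.05 was 612 with all libraries, between 243 (without 249) and 1093 (without 276) with 1 library left out, and between 290 (mean CPM of at least 10) and 2194 (voom) in the other settings. The median of all genes was 0.12, and 0.20 with upper-quartile scaling. Of the genes whose fold change is printed, Pf4 (-5.59 to 1.72) and Ppbp (-8.45 to 0.27) changed sign with 1 library left out, at their highest without 275, and went to 0.30 and 0.52 without 257 and 275; the level of 275 alone sets both. Pla2g16, Mllt3, Igkc, Jchain, Trbc1, Rag2, Fcrla, Serpine2, Siglech and Ibsp passed the threshold with DESeq2, and the cause was not tested. When 1 library was left out, a group kept as few as 1 or 2 libraries, and the spread of a lone vehicle library was taken from the other groups. No paired analysis was possible because the groups share no library numbers. Depth limits genes with few counts: 3 counts correspond to 0.0641 CPM over the vehicle group and 0.0362 CPM over the treated group.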

Other observations

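Genes of antigen presentation and of rarer cell types gave values that belong to no list call. All 11 MHC class II genes tested had a log2 fold change above 0 (median 0.44; 1.12 in the WT niche; -0.05 to 1.26 when any 1 KO library was left out, lowest without 249 and highest without 275), but 0 lay above both vehicle libraries in all treated libraries. H2-Aa, a class II alpha chain, was at 169 and 671 CPM in vehicle libraries 249 and 275 and at 1074, 665 and 206 CPM in treated libraries 257, 263 and 276, so 249 and 276 were low and the other 3 high. Siglech, a surface marker of plasmacytoid dendritic cells, was at 1.57 and 0.286 CPM with vehicle and 43.9, 5.68 and 26.7 CPM with treatment, a log2 fold change of 4.77 (adjusted p = 0.0463 with DESeq2 and 1 with edgeR). Ibsp, the bone sialoprotein of osteoblasts, was at 0.895 and 51.8 CPM with vehicle and 0, 0.176 and 0.333 CPM with treatment. Its high level was in library 275 alone, which also held the platelet and stromal transcripts.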
